A study of Mus musculus with 11 samples.

Results

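The genes described here are 8 genes of lipoprotein and cholesterol handling, *Apoe*, *Apod*, *Abca1*, *Abcg1*, *Lrp1*, *Lpl*, *Scarb1* and *Plin2*, taken by name from the 14602 genes of the count table. All 8 were present. None was chosen by a cut on its measured values, but the list was drawn up with earlier results of these data known. RNA sequencing was performed on RPE/choroid of C57BL/6J mice, the retinal pigment epithelium with the vascular layer behind it. Mice of the 5 laser treated samples received the 2RT nanosecond laser, a short-pulse ocular laser, at 9 months of age and their tissue was taken at 12 months, 3 months later. The 6 naïve control samples came from age-matched, untreated mice, also 12 months old. All animals were of the same strain with no transgene named, and the labels name neither the sex of the mice nor pooling of animals, so the spread between samples is that between libraries. The comparison asks whether transcripts of lipid handling differ 3 months after laser treatment. In bulk tissue, fewer cells of a type and less RNA per cell cannot be told apart.

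The RPE takes up shed photoreceptor outer segments each day and so receives a large load of lipid and cholesterol. It also takes up lipoproteins from the choroidal blood, stores lipid in droplets and returns it as lipoprotein particles to both the retina and Bruch's membrane, where lipid gathers with age. In this traffic, *Apoe* encodes the apolipoprotein E of these particles and *Apod* the lipocalin apolipoprotein D. *Abca1* and *Abcg1* encode ABC transporters that pass cholesterol out of the cell to apolipoproteins and to lipoprotein particles. *Lrp1* encodes an endocytic receptor that binds apolipoprotein E, *Scarb1* the HDL receptor SR-BI, *Lpl* the lipase that releases fatty acids from triglyceride-rich particles, and *Plin2* a coat protein of lipid droplets. The nuclear receptors LXR, which sense oxysterols, are known activators of *Abca1*, *Abcg1*, *Apoe* and *Lpl*, and the SREBP factors of genes of cholesterol uptake and synthesis.

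Promoter windows of RefSeq, from 250 bases before to 50 bases after a transcription start on GRCm38.p6, were matched for 5 of the 8 genes (*Apoe*, *Apod*, *Abca1*, *Lrp1* and *Plin2*). The windows of *Abca1* (chr4:53159846-53160145, minus strand), *Plin2* (chr4:86670010-86670309, minus strand) and the outermost of 3 starts of *Apoe* (chr7:19699139-19699438, minus strand) are shown 5′ to 3′, because these genes stand for efflux, storage and the particle itself. Capitals mark the E-box CACGTG, the GC-box GGGCGG and the TATA box TATAAA, each on either strand.
Abca1: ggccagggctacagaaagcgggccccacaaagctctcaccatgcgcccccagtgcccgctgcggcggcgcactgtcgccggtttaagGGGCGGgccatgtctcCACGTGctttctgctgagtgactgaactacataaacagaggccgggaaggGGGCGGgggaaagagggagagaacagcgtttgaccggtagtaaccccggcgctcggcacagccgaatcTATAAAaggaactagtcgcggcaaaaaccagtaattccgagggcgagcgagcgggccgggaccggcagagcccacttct
Plin2: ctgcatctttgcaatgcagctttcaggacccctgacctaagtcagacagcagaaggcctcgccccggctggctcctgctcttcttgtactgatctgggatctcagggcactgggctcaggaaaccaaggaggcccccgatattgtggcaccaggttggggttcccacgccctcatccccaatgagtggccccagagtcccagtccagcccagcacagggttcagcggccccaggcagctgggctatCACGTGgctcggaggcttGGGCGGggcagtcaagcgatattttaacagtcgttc
Apoe: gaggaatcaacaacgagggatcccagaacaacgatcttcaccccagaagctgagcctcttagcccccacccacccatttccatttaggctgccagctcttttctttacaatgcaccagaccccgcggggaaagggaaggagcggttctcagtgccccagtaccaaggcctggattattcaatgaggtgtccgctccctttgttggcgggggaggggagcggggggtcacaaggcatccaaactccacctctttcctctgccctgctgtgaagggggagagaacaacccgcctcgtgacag
The *Abca1* window held 1 E-box, 2 GC-boxes and 1 TATA box, with no overlap between them. The *Plin2* window held 1 E-box and 1 GC-box, and the *Apoe* window shown held none of these letters. The window of another *Apoe* start, not shown (chr7:19698572-19698871, minus strand), held 2 matches of the TATA box, 1 on each strand, which overlap in TTTATATAAA. Of 32851 windows, 7.15% held the E-box, 35.7% the GC-box and 13.6% the TATA box.

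The libraries held 25700881 to 38755994 counts each. In the first lines of the files of assembled transcripts, naïve controls 1 to 3 and laser treated 1 and 2 carry the label R1 and the other libraries R2, and the meaning of the label is not given in the sources used here. The 9 markers of RPE were all in the table and summed to 96350 to 133400 CPM (TMM scaled counts relative to library size) in control libraries and 78410 to 129800 in laser treated libraries. Rod photoreceptor transcripts were also present, at 5218 to 19410 and 3438 to 17770 CPM. The 4 melanocyte markers, *Sox10*, *Kit*, *Ednrb* and *Mc1r*, summed to 154.1 to 204.3 CPM in controls and 233.5 to 333.8 CPM in laser treated libraries, without overlap. Among the 12 marker lists only this sum did not overlap, and of all single genes 2.26% did not. Most of the sum was *Sox10*, which itself overlapped, at 97.8 to 149.5 and 147.8 to 269.5 CPM. Only *Sox10* had an unadjusted p under 0.05 by edgeR (adjusted p = 0.172), and *Mc1r* had a log2 fold change of -0.87.

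Scaled to the length of the gene's merged exons, *Apoe* was the most abundant of the 8 genes, at a mean of 3316 CPM per kb ± 687 (SD, n = 11). By raw count it was the 12th most abundant of all genes, with 0.713% of all counts. *Plin2* followed at 52.8 ± 17.2 CPM per kb and *Scarb1* at 23.7 ± 5.17. *Apod* stood at 12.9 ± 8.32, *Abca1* at 6.83 ± 1.24, *Lrp1* at 6.69 ± 1.77, *Abcg1* at 1.74 ± 0.756 and *Lpl* at 0.680 ± 0.753 CPM per kb. The ranges over the 11 libraries were apart for *Apoe* and *Plin2* and for *Lrp1* and *Abcg1*. Those of *Plin2* and *Scarb1* were narrowly apart, at a lowest of 35.27 and a highest of 35.24 CPM per kb. *Plin2* was above *Scarb1* in 11 of 11 libraries, at a median ratio of 2.02 within a library. *Abca1* and *Lrp1* could not be ordered, since *Abca1* was the higher in 5 of 11 libraries, and *Abcg1* was above *Lpl* in 9 of 11. On the TPM of the assembled transcripts, an abundance scaled for length,, *Lrp1* was above *Abca1* in all 11 libraries, *Abcg1* was above *Lpl* in 2 of 11 and *Plin2* above *Scarb1* in 7 of 11. For *Apoe*, 99.9% to 100% of the assembled exon coverage lay in 1 exon block, and for *Lrp1* 28.2% to 72.2%. The assembled transcripts held part of each gene, at a median of 12.13% (*Lpl*) to 67.45% (*Plin2*) of its exon bases. TPM of different genes therefore rest on unlike parts of them.

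**Figure D1:**
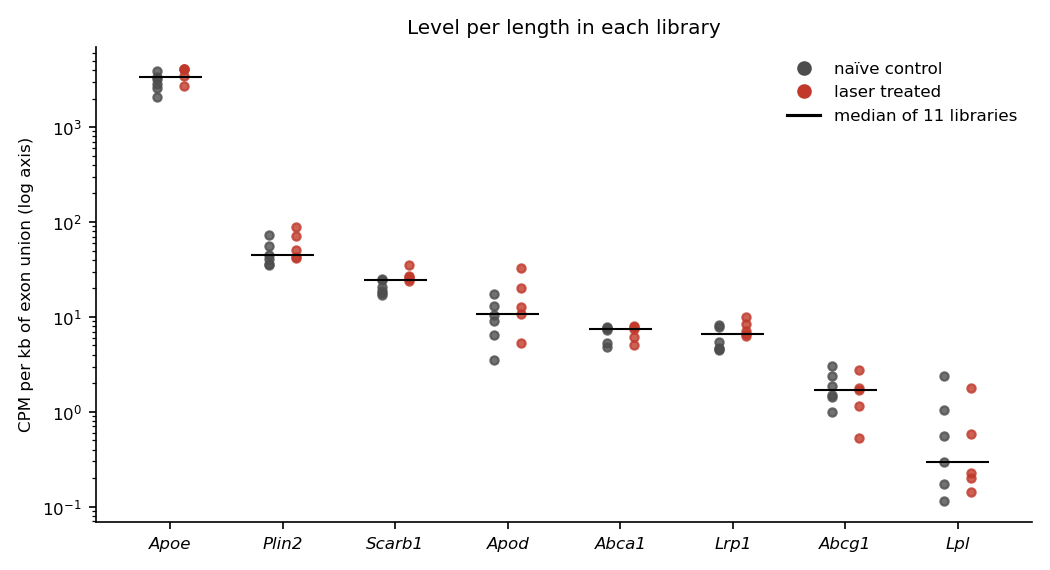
Level per length of the 8 genes (CPM per kb of merged exons, log axis) in the 6 naïve control and 5 laser treated libraries, with each point 1 library and the line the median. *Apoe* lies above all other genes at 2085 to 4133, and *Lpl* spans the widest range, 0.115 to 2.37.

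No member passed an adjusted p of 0.05 in the quasi-likelihood test of edgeR, with p-values adjusted over all genes by the method of Benjamini and Hochberg, and neither did any of the 14602 genes (0.0% called), the lowest adjusted p being 0.061. At an unadjusted p under 0.05, 2325 genes (15.9%) passed by edgeR, 1203 higher in laser treated samples (8.24%) and 1122 lower (7.68%). Of the members, 1 of 8 did so, *Scarb1*, a share of 12.5% and near that background. The log2 fold change was above 0 for 6 members and below 0 for 2, with a median of 0.30 over the members and -0.02 over all genes. Over all genes, 7081 were above 0 and 7521 below. The groups overlapped for every member, and 2.26% of all genes had groups that did not overlap (1.4% with the laser treated group higher). DESeq2 called 502 of the 7512 genes with an adjusted p (6.68%), and none was a member.

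**Figure D2:**
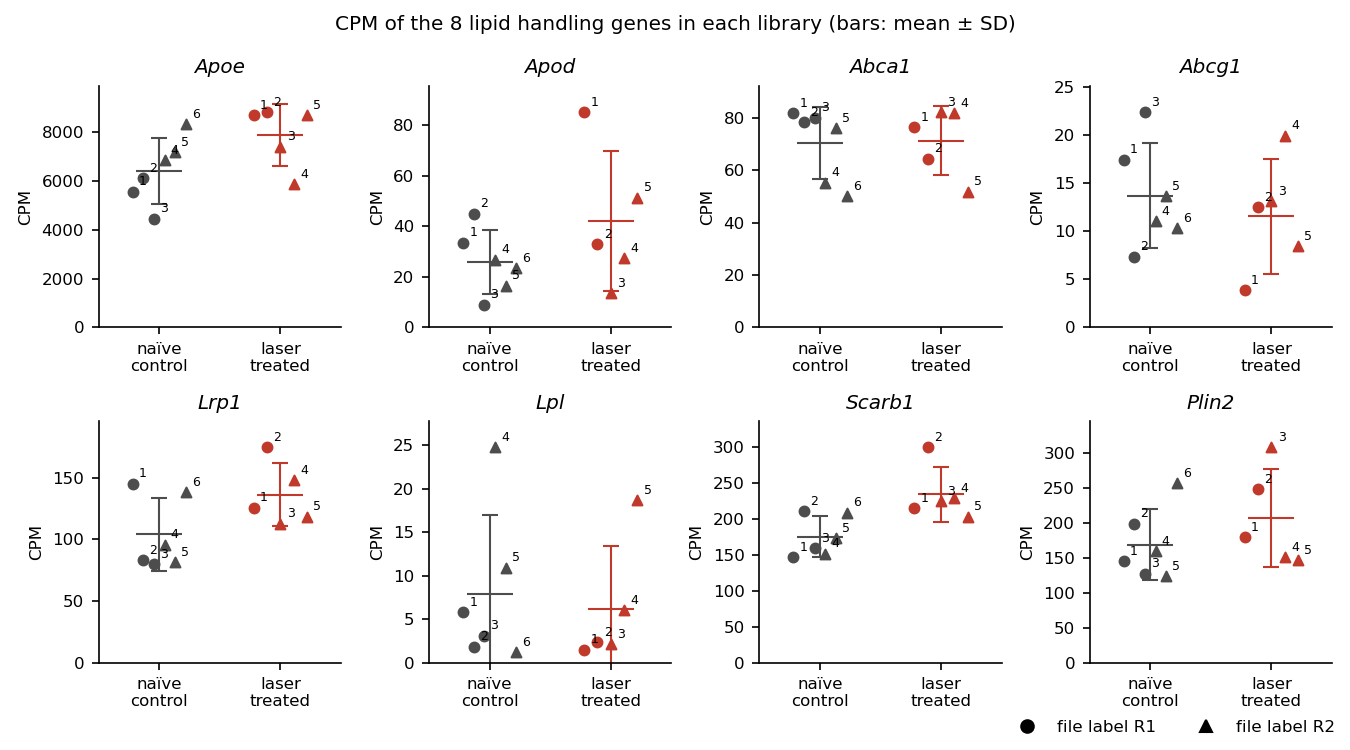
CPM (linear axis from 0) of the 8 genes in each library, numbered by replicate, with circles and triangles for the file labels R1 and R2 and bars for the mean ± SD. The lower ends of the *Lpl* bars fall below 0 and are not drawn. The groups overlap in every panel, and 4 of 5 laser treated libraries of *Scarb1* lie above all controls.

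*Apoe* (ENSMUSG00000002985) lies on chromosome 7 from 19696109 to 19699188 on the minus strand of GRCm38. It measured 4458 CPM at the lowest, 6486 at the median and 8342 at the highest in the 6 control libraries. The 5 laser treated libraries measured 8689, 8836, 7405, 5858 and 8687 CPM in order of replicate. Laser treated 1, 2 and 5 were above every control, and laser treated 4 was below the control median. The means were 6419 ± 1350 (SD, n = 6) and 7895 ± 1278 CPM (n = 5), a log2 fold change of 0.30 with a standard error of 0.16 and a 95% interval of -0.05 to 0.64 (edgeR, adjusted p = 0.389). Within label R1 the log2 fold change was 0.72 (edgeR, adjusted p = 0.181), with both laser treated libraries above the 3 controls, and within R2 it was -0.01 (edgeR, adjusted p = 0.997). The difference between these, -0.73, had an unadjusted p of 0.0143 and an adjusted p of 0.419 in edgeR. With trends over GC content and transcript length removed, the log2 fold change of *Apoe*, of 59.5% GC against a median of 49.8% over matched genes, was 0.16. The libraries lowest in *Apoe* in each group, control 3 and laser treated 4, were those highest in rod transcripts, at 19410 and 17770 CPM, and laser treated 4 was lowest in RPE markers, at 78410 CPM. The part of these markers in the level of *Apoe* was not tested.

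*Apod* (ENSMUSG00000022548; chromosome 16 from 31296192 to 31314808, minus strand) had the highest log2 fold change of the 8 genes with a wide error. Controls measured 8.95 CPM at the lowest, 25.1 at the median and 44.9 at the highest. Laser treated libraries measured 85.3, 32.9, 13.6, 27.4 and 51.4 CPM, so that laser treated 1 and 5 were above every control and laser treated 3 was below the control median. The means were 25.7 ± 12.7 (n = 6) and 42.1 ± 27.7 CPM (n = 5), and the log2 fold change was 0.71 with a standard error of 0.44 (edgeR, adjusted p = 0.471). It was 0.29 without laser treated 1. Among the 500 genes closest in abundance, 96.8% had a smaller spread within groups. Of the Schwann cell markers, the myelin gene *Mbp* ran from 24.3 to 164.7 CPM in controls and measured 566.1, 30.1, 69.5, 268.5 and 440.1 CPM in laser treated libraries. It was highest in laser treated 1 and next in laser treated 5, the libraries with the highest *Apod*. *Mbp* and *Mag*, a myelin adhesion gene, had log2 fold changes of 2.22 and 3.33 at unadjusted p under 0.05 by edgeR, and neither passed the adjusted test (adjusted p = 0.208 and 0.216). The Schwann cell markers did not all run this way, since 2 others had log2 fold changes of -0.05 and -1.46, neither at unadjusted p under 0.05. The 6 fibroblast markers summed to 86.33 CPM in control 3 and 96.85 in laser treated 3, the lowest of each group, as was *Apod*. The high ends did not match. Laser treated 1, highest in *Apod*, summed to 203.7 CPM, below laser treated 2, 4 and 5 (425.4, 310.3 and 356.6 CPM). Control 4 had the highest fibroblast sum, 473.4 CPM, and 26.8 CPM of *Apod*. The part of these cell types in *Apod* was not tested.

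Of the efflux transporters, *Abca1* (ENSMUSG00000015243; chromosome 4 from 53030787 to 53159895, minus strand) had nearly equal means, 70.3 ± 13.8 CPM (n = 6) and 71.3 ± 13.0 (n = 5). Controls ran from 50.2 through a median of 77.3 to 81.8 CPM, and laser treated libraries measured 76.3, 64.4, 82.3, 81.7 and 51.8 CPM. The log2 fold change was 0.02 with a 95% interval of -0.35 to 0.39, that is from 0.786-fold to 1.31-fold (edgeR, adjusted p = 0.972). On the log2(TPM + 1) scale of the assembled transcripts it was 0.52, with an unadjusted p of 0.0226 and an adjusted p of 0.267 by limma, and with GC and length trends removed it was 0.18. *Abcg1* (ENSMUSG00000024030; chromosome 17 from 31057675 to 31117988, plus strand) was lower in level. Its controls ran from 7.34 through a median of 12.3 to 22.4 CPM, and laser treated libraries measured 3.85, 12.5, 13.2, 19.9 and 8.42 CPM. Only laser treated 1 was below every control and none was above. The means were 13.7 ± 5.46 (n = 6) and 11.6 ± 5.98 CPM (n = 5), with a log2 fold change of -0.24 and a standard error of 0.39 (edgeR, adjusted p = 0.832), and of -0.02 without laser treated 1. An rRNA gene, *Gm25447*, lies within *Abcg1* on the same strand.

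*Lrp1* (ENSMUSG00000040249; chromosome 10 from 127538161 to 127621148, minus strand) measured 80.1 CPM at the lowest, 89.3 at the median and 145 at the highest in controls. Laser treated libraries measured 126, 175, 113, 148 and 118 CPM. All 5 were above the control median, and laser treated 2 and 4 were above every control. The means were 104 ± 29.8 (n = 6) and 136 ± 25.5 CPM (n = 5), a log2 fold change of 0.39 with a standard error of 0.19 and a 95% interval of -0.02 to 0.80 (edgeR, adjusted p = 0.340). With GC and length trends removed it was 0.22. In 9 of 26 alternative settings the unadjusted p of *Lrp1* was under 0.05, and its adjusted p ranged from 0.162 to 0.885 over them. An antisense gene, *Gm16217*, overlaps *Lrp1*, and the stated kits do not mark strand, so reads of the pair cannot be told apart. Introns held 11.0% to 37.7% of the assembled coverage within *Lrp1*, and at most 0.144% within *Lpl*.

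*Scarb1* (ENSMUSG00000037936; chromosome 5 from 125277087 to 125341094, minus strand) gave the lowest p of the 8 genes. Controls measured 146 CPM at the lowest, 166 at the median and 211 at the highest. Laser treated libraries measured 215, 300, 225, 228 and 203 CPM. Of the 5, 4 were above every control, and laser treated 5 lay between the controls' median and their highest value. The means were 175 ± 28.5 (n = 6) and 234 ± 37.9 CPM (n = 5), 1.34-fold with a 95% interval of 1.09 to 1.64, or a log2 fold change of 0.42 with a standard error of 0.14 (edgeR, unadjusted p = 0.00924, adjusted p = 0.195). The direction was the same within label R1, at 0.60, and within R2, at 0.32, and with GC and length trends removed, at 0.40. The unadjusted p was under 0.05 in 25 of 26 alternative settings and the adjusted p in 0 of 26, with a range of 0.0687 (DESeq2) to 0.800. Without laser treated 2, the highest library, the log2 fold change was 0.32. Laser treated 2 was also the highest library in summed macrophage (553.2 CPM), endothelial (488.4 CPM) and melanocyte markers (333.8 CPM). In RPE markers it was the highest of its group (129800 CPM). Controls 2 and 6, the controls highest in *Scarb1*, were also those highest in RPE markers (118900 and 133400 CPM). Control 1, lowest in *Scarb1*, had the lowest RPE sum of the controls (96350 CPM) but 264.8 CPM of endothelial markers. Laser treated 4, lowest in RPE markers at 78410 CPM, was next to laser treated 2 in *Scarb1*. The part of these cell types in *Scarb1* was not tested. *Gm42633*, a gene model on the same strand, lies within *Scarb1*.

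*Lpl* (ENSMUSG00000015568; chromosome 8 from 68880491 to 68907448, plus strand) differed 20.5-fold between the highest and lowest library, and not by group. Controls measured 5.80, 1.83, 3.10, 24.8, 10.9 and 1.21 CPM, and laser treated libraries 1.49, 2.36, 2.08, 6.05 and 18.7 CPM. Control 4 and laser treated 5 were the highest of each group. The means were 7.94 ± 8.99 (n = 6) and 6.14 ± 7.24 CPM (n = 5), and the log2 fold change was -0.37 with a standard error of 0.82 (edgeR, adjusted p = 0.887). It was 0.42 without control 4, -1.41 without laser treated 5, and -1.63 without control 6 and laser treated 5. Of 6 adipocyte markers, 2 were in the table (*Fabp4* and *Retn*) and *Adipoq*, *Cidec*, *Lep* and *Plin1* were not. Their summed level was 8.21 CPM in laser treated 5, the highest library, and 3.218 CPM in control 4, the highest control, against 0.786 to 2.71 CPM in the other libraries. *Retn* was at 0 in control 4. The 4 markers of retinal Müller glia summed to 696.0 and 691.2 CPM in controls 4 and 5, the controls highest in *Lpl*. The other controls summed to 436.9 to 538.4 CPM. Sums were 913.8 and 741.3 CPM in laser treated 5 and 4, highest of their group in *Lpl*, and 470.1 to 645.0 in the others. *Dkk3* was highest in the same libraries of each group, whereas *Aqp4* and *Slc1a3* were lowest among controls in control 4. The part of adipose tissue or Müller glia in *Lpl* was not tested.

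*Plin2* (ENSMUSG00000028494; chromosome 4 from 86648386 to 86670060, minus strand) measured 124 CPM at the lowest, 152 at the median and 256 at the highest in controls. Laser treated libraries measured 179, 248, 308, 151 and 146 CPM. Only laser treated 3 was above every control, and laser treated 4 and 5 were below the control median. The means were 168 ± 50.9 (n = 6) and 206 ± 69.8 CPM (n = 5), with a log2 fold change of 0.30 and a standard error of 0.23 (edgeR, adjusted p = 0.595). It was 0.11 without laser treated 3 and 0.56, at an adjusted p of 0.168 by edgeR, without control 6 and laser treated 5.

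**Figure D3:**
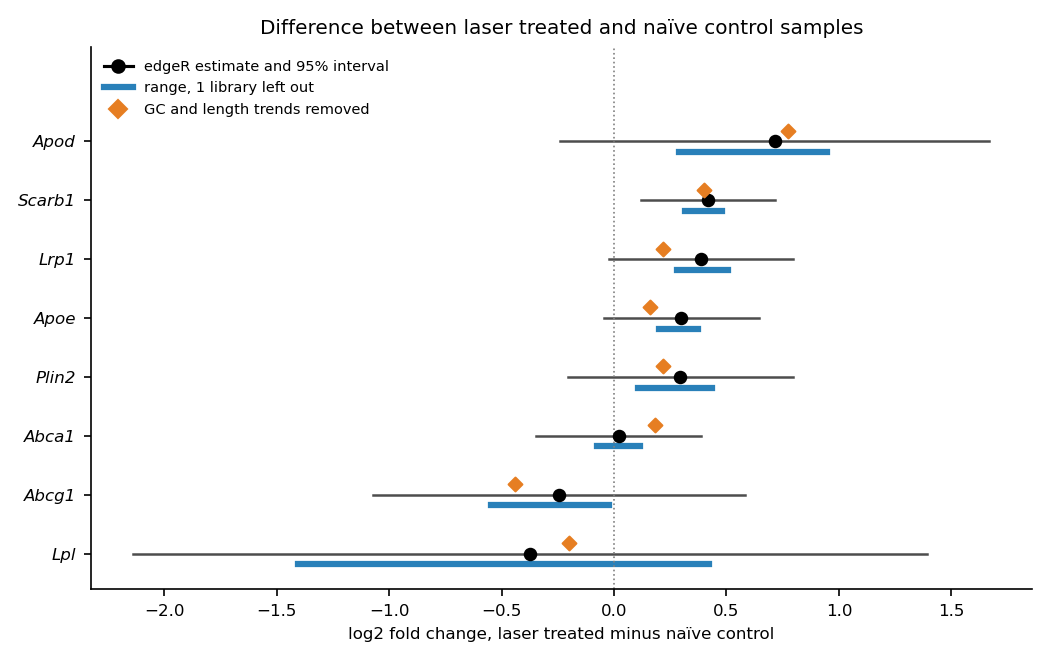
Log2 fold change (x axis, laser treated minus naïve control) of each gene with its 95% interval, the range when 1 library is left out and the value with GC and length trends removed. The interval of *Scarb1*, 0.12 to 0.72, lies above 0, and those of the other 7 genes include 0.

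Within groups, the members did not vary together. With each gene's log2 CPM centred within its group, over 11 libraries that differed in tissue composition and depth as described above, the pair most alike was *Scarb1* and *Plin2* (Pearson r = 0.63). *Apod* and *Abcg1* ran most opposite (r = -0.77), followed by *Apoe* and *Abca1* (r = -0.69). *Apoe* also ran opposite to *Abcg1* (r = -0.64) and *Lpl* to *Plin2* (r = -0.64). These are descriptions over 11 libraries, not tests. Of all genes of the table, those most like each member by the same measure were *Gstt3*, *Taldo1* and *Rbms1* for *Apoe* (r of 0.94, 0.94 and 0.93) and, among others, *Comp* and *Evi2a* for *Apod* (0.91 and 0.89). For *Abca1* they were *Gm17753*, *Eml1* and *Gm1818* (0.95, 0.95 and 0.94), and for *Abcg1* *Blmh*, *Zfp821* and *Epb4.1l3* (0.97, 0.96 and 0.96). *Ubap2l*, *Arf3* and *Armc5* were most like *Lrp1* (0.90, 0.87 and 0.87), and *Lmo4*, *Lrsam1* and *Emb* most like *Lpl* (0.97, 0.94 and 0.94). *Tjap1*, *Ciapin1* and *Xlr3a* were most like *Scarb1* (0.97, 0.95 and 0.93), and *Cox18*, *Gm4980* and *1810012P15Rik* most like *Plin2* (0.93, 0.93 and 0.89).

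**Figure D4:**
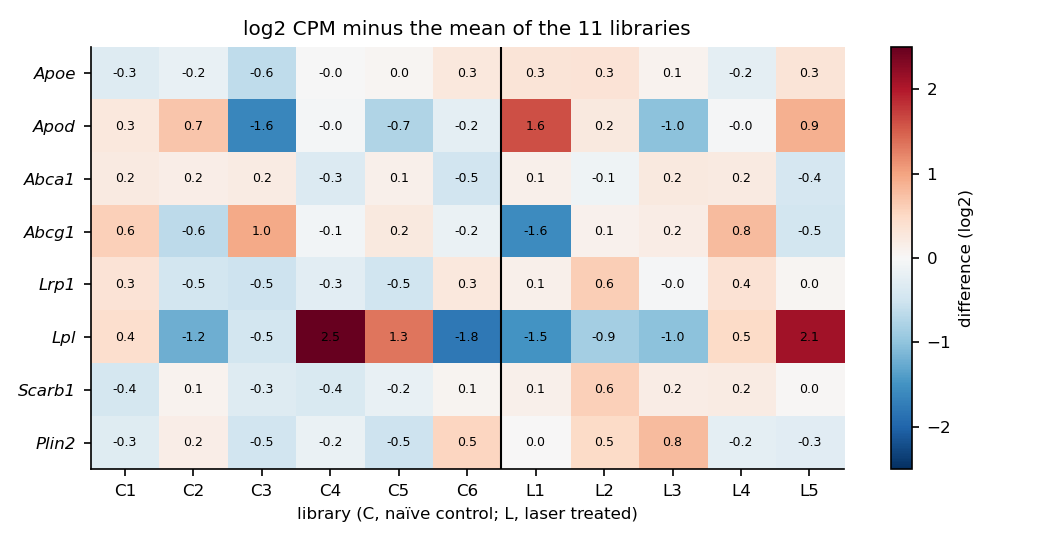
Log2 CPM of each gene (rows) in each library (columns, C for naïve control and L for laser treated), as the difference from the mean of the 11 libraries. *Lpl* and *Apod* vary most, with *Lpl* high in C4 and L5 and *Apod* high in L1, while *Apoe*, *Abca1*, *Lrp1* and *Scarb1* stay close to their means.

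The members were set beside 142 other genes of lipid handling in 7 lists, of which 117 were in the table. None passed the adjusted test. At an unadjusted p under 0.05 by edgeR, the laser treated group had higher levels of 17 and lower levels of 8, together 21.4% beside 15.9% of all genes, and the median log2 fold change was 0.08 beside -0.02. By list, this share ran from 10.0% for cholesterol synthesis to 35.3% for the regulators. The 17 had a median GC content of 57.5% and the 8 of 43.3%, and with GC and length trends removed 3 were higher (*Lmf1*, *Nr1h2* and *Lipe*) and 2 lower (*Osbpl8* and *Sc5d*). The share of all genes at that threshold with the trends removed was not counted. Whether the drop is particular to these lists therefore cannot be said. The groups did not overlap for 5 genes (4.27%), *Abca2*, *Osbpl8*, *Cyp46a1*, *Lipe* and *Bscl2*, beside 2.26% of all genes. DESeq2 called 8 of the 77 list genes with an adjusted p (10.4%, beside 6.68% of all genes), 6 higher and 2 lower.

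Of 17 regulators of the LXR, SREBP and PPAR pathways, 12 had log2 fold changes above 0, beside 7081 of all 14602 genes. The median of the regulators was 0.25. At unadjusted p under 0.05 by edgeR, 5 were higher: *Nr1h2*, which encodes LXRβ, its partner *Rxrb*, the sterol-regulated factors *Srebf1* and *Srebf2*, and their escort *Scap*. *Nr1h2* measured 51.9 to 80.0 CPM in controls and 74.5 to 121.7 in laser treated libraries, a log2 fold change of 0.65 with a standard error of 0.16 (edgeR, adjusted p = 0.172; DESeq2, adjusted p = 0.0176). With GC and length trends removed, *Nr1h2* stood at 0.36 (unadjusted p = 0.0140), whereas *Srebf1* stood at 0.16 in place of 0.53, *Srebf2* at 0.12 in place of 0.46, *Scap* at 0.14 in place of 0.53 and *Rxrb* at 0.08 in place of 0.44. *Mbtps2*, a protease that releases SREBP, was lower at -0.75, and stood at -0.46 (unadjusted p = 0.138) with these trends removed. Of the 20 genes of cholesterol synthesis, 12 had log2 fold changes below 0, beside 7521 of all 14602 genes. At unadjusted p under 0.05 by edgeR 2 were lower and 0 higher, 10.0% beside 15.9% of all genes. These 2 were the sterol oxidases *Sc4mol* (now *Msmo1*), the most abundant of the list, at -0.35 and *Sc5d* at -0.55. With GC and length trends removed they stood at -0.23 (unadjusted p = 0.191) and -0.36 (unadjusted p = 0.0439).

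Of 20 lipid droplet and lipolysis genes, the lipases *Pnpla2* (log2 fold change 0.56) and *Lipe* (0.83) and the seipin gene *Bscl2* (0.32) were higher and *Hilpda* (-0.59), which encodes an inhibitor of *Pnpla2*'s product, was lower, all at unadjusted p under 0.05. *Lipe*, the hormone-sensitive lipase, measured 10.3 to 13.0 CPM in controls and 16.6 to 23.6 in laser treated libraries, at an adjusted p of 0.172 by edgeR and 0.00297 by DESeq2. With GC and length trends removed it stood at 0.49 (unadjusted p = 0.00971). The same correction left *Pnpla2* at 0.25, *Bscl2* at 0.18 and *Hilpda* at -0.30, none at unadjusted p under 0.05. *Mgll* was the most abundant of this list. Of 21 genes of intracellular cholesterol traffic, led in abundance by *Tspo*, *Stard3* (0.55), *Cyp27a1* (0.39) and *Cyp46a1* (0.82), the last 2 sterol hydroxylases, were higher at unadjusted p under 0.05. With the trends removed they stood at 0.29, 0.25 and 0.52, none past that threshold. *Osbpl8*, an oxysterol-binding protein, was lower, at 34.3 to 63.5 CPM in controls and 20.1 to 29.4 in laser treated libraries, a log2 fold change of -0.95 with a standard error of 0.19 (edgeR, adjusted p = 0.172; DESeq2, adjusted p = 0.00319) and of -0.60 with GC and length trends removed.

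Of 16 apolipoprotein and assembly genes, 7 were in the table, and *Apoa1*, *Apoa4*, *Apob* and *Apoc2* were among those that were not. *Clu*, the apolipoprotein J gene and the most abundant, had a log2 fold change of 0.36 and *Pltp*, phospholipid transfer protein, of 0.50, both at unadjusted p under 0.05. With GC and length trends removed, *Clu* stood at 0.17 (unadjusted p = 0.140) and *Pltp* at 0.22 (unadjusted p = 0.123). Of 19 receptors, *Lrp10* (0.57), *Lsr* (0.60) and the lipase maturation factor *Lmf1* (0.53) were higher and *Vldlr* (-0.36) and *Lrp6* (-0.47) lower at that threshold. With the trends removed *Lmf1* stood at 0.47 (unadjusted p = 0.0187), whereas *Lrp10* at 0.19, *Lsr* at 0.30, *Vldlr* at -0.09 and *Lrp6* at -0.27 were no longer past it. The receptor chaperone *Lrpap1* was the most abundant of them. Of 13 ABC transporters, led in abundance by *Abcd3*, *Abca2* was higher (0.47) and *Abcd2* lower (-2.02) at that threshold, and both missed it with the trends removed (0.23 and -1.77).

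**Figure D5:**
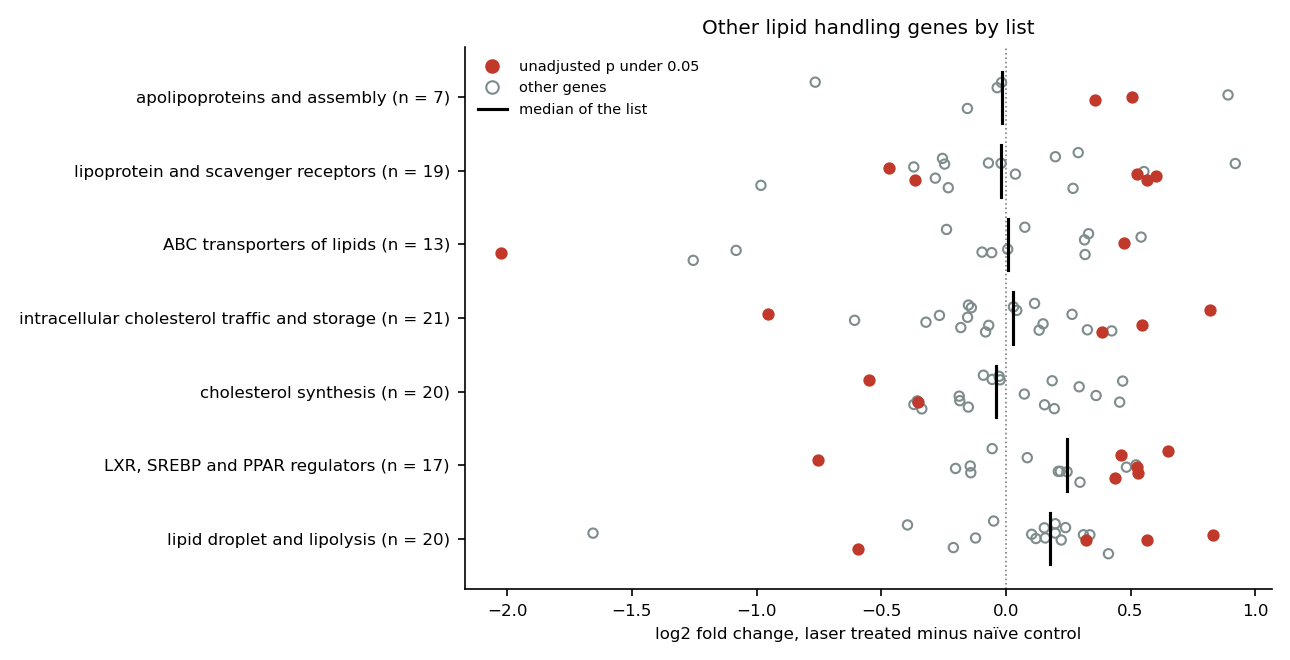
Log2 fold change (x axis, laser treated minus naïve control) of the 117 other lipid handling genes by list, 1 point a gene, filled where the unadjusted edgeR p was under 0.05, with a line at each list's median. The medians run from -0.04 for cholesterol synthesis to 0.25 for the regulators.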

How the data were processed

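RPE/choroid RNA of 6 naïve control and 5 laser treated samples was preamplified with SmartSeq v4 and made into Nextera XT libraries, which do not mark strand. The authors deposited raw counts per gene, and the submitters' processing notes name bcl2fastq 2.18.0.12, Trim Galore, STAR 2.5.3a, featureCounts 1.5.3, StringTie 1.3.3, edgeR 3.22.3 and the builds mm10 and GRCm38. The authors also deposited log2 fold changes and log2 abundances, an F score, p-values and FDR values of their own comparison, and these 5 columns were not used. The deposited transcript files, 1 per library, hold StringTie fragments with TPM, which were summed per gene.

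Counts were fitted in edgeR 4.0.16 (R 4.3.3) with TMM scaling, filterByExpr (0 genes removed), robust quasi-likelihood fits over 14602 genes and Benjamini-Hochberg adjustment, at an adjusted p under 0.05. CPM were TMM scaled. Total counts were 25700881 to 38755994 per library, and standard errors give the precision at this depth. Genes were placed with the GENCODE annotation of GRCm38 (13045 by identifier, 1197 by an older symbol, 10 by symbol and 350 not matched), and GC and length trends were removed by loess with a span of 0.3. Alternatives used DESeq2 1.42.0 and limma 3.58.1. Scripts were tested on simulated data. The 8 genes, the 7 lipid lists and the 12 marker lists were chosen with earlier results of these data known. Named genes are the members, each list's most abundant gene, every list gene at an unadjusted p under 0.05 and the 3 genes most like each member. Some items these rules select are not reported here. The labels do not say whether each sample was a separate animal, so p-values measure only the spread between these samples.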

Additional observations from a re-analysis of the deposited data

Results flagged for a closer look

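Values of the 8 genes were examined for a library far from the others in its group, over 16 groups of values, and 2 groups held one. How often chance alone gives such a library in values of this spread was not tested. *Lpl* was 18.69 CPM in laser treated 5, against 1.489 to 6.047 CPM in the other laser treated libraries. *Scarb1* was 299.5 CPM in laser treated 2, against 202.8 to 228.3 CPM in the others.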

How the results depend on the processing

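Over 26 alternatives, the log2 fold changes of *Apod*, *Lrp1*, *Scarb1* and *Plin2* kept their direction and no member with an adjusted p passed the adjusted test (DESeq2 gave none for *Abcg1* and *Lpl*). *Abca1* changed sign with a replicate block (-0.068) and within label R1 (-0.16), *Apoe* within R2 (-0.0061) and *Abcg1* within R2 (0.27). Leaving out 1 library at a time gave ranges of 0.20 to 0.37 for *Apoe*, 0.29 to 0.95 for *Apod*, -0.077 to 0.12 for *Abca1*, -0.55 to -0.02 for *Abcg1*, 0.28 to 0.51 for *Lrp1*, -1.41 to 0.42 for *Lpl*, 0.32 to 0.48 for *Scarb1* and 0.11 to 0.43 for *Plin2*. The count of genes past the adjusted p was 0 with edgeR, 502 with DESeq2, 1 with limma voom, 2 with at least 10 counts in every library, 2 with limma on TPM at either pseudocount, 0 to 4 with 1 library left out (4 without laser treated 2) and 389 without control 6 and laser treated 5 together, a choice made after seeing the data. The list genes higher and lower at unadjusted p under 0.05 (17 and 8) were 3 and 2 with GC and length trends removed, 6 and 3 with these and the replicate block, and 14 to 19 and 5 to 10 with 1 library left out. There were 5 lower within R1, 4 higher within R2 and 4 lower on TPM at either pseudocount. The cause was not tested, and the share of all genes at unadjusted p under 0.05 was not counted in these alternatives. Same-numbered samples deviated together with r of -0.01, 0.12, 0.28, -0.01 and -0.01, so the numbers were not taken as pairs, and with the block no member passed the adjusted test, but *Apoe* (unadjusted p = 0.0389) and *Lrp1* (0.0229) joined *Scarb1* under an unadjusted 0.05, and 20 list genes were higher. Per kb of the longest transcript, the level was 5036 CPM for *Apoe*, 1.73 for *Lpl*, 65.2 for *Scarb1* and 98.3 for *Plin2*. The mean TPM was 6487 for *Apoe*, 88.9 for *Apod*, 45.7 for *Abca1*, 6.46 for *Abcg1*, 104.7 for *Lrp1*, 22.7 for *Lpl*, 211 for *Scarb1* and 233 for *Plin2*. With 6 and 5 libraries and standard errors of 0.14 to 0.82, differences of the size seen for most members could not be told from 0.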
